A study of Mus musculus with 4 samples.

Results

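Accessible chromatin was examined at 10 genes that encode chains of cytokine and interferon receptors, namely Il10ra, Il10rb, Il6ra, Il6st, Il1r1, Il1rap, Il17ra, Ifngr1, Ifngr2 and Ifnar1. Their regions were chosen by gene name. Peaks sharing at least 1 bp, in whichever of the 4 libraries, were joined into 1 region, and a region belonged to a receptor gene if its highest peak was annotated to that gene, the one with the nearest transcription start site (TSS). This gave 76 regions of the 60710 regions in the series. The regions were picked by name and not by a comparison between groups, but the genes were chosen with earlier results of these data known. A region can lie in the body of another gene or act on one. The 10 genes held 4 to 11 regions each with a median of 7.5, whereas the median over the 16244 genes with any region was 2 and the 75th percentile was 5.

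The cells were bone marrow-derived macrophages (BMDMs) of wild-type C57BL/6 mice aged 8 to 12 weeks, grown for 6 days with L929 supernatant, which supplies macrophage colony-stimulating factor. The control group (n = 2 libraries) received no IL-4 and the IL-4 group (n = 2 libraries) received IL-4 at 20 ng/ml for 1 h, so that both groups share the genotype and the differentiation. The libraries were made by ATAC-seq, a method that lets the Tn5 transposase cut accessible DNA and attach sequencing adapters to it. The value of a peak is its height, the −log10 of a significance value from the peak caller, which measures evidence over the background of the same library and is not a read count.

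Cytokine receptors are assembled from different chains, of which one usually binds the ligand and another completes the signalling complex. The receptors for interferons, IL-10 and IL-6 signal through Janus kinases and STAT transcription factors, whereas the IL-1 receptor signals through MyD88 and IRAK kinases and the IL-17 receptor through the adaptor Act1. IL-4 acts through its own receptor and activates STAT6, which binds DNA at TTC and GAA separated by 4 bases. The comparison asks whether short IL-4 stimulation changed the accessibility of the genes through which macrophages sense these other cytokines.

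The libraries held 39462 to 45250 peaks and the lowest median height was in IL-4 replicate 2 (6.41, compared to 7.46 to 8.04 in the other libraries). Heights and peak numbers grow with sequencing depth, which is unknown because the files give no counts. As a check of the cell type, 8 of 10 macrophage markers had a peak within 1000 bp of the TSS in all 4 libraries, including Adgre1, Cd68, Itgam and Mertk, and Csf1r and Spi1 had none there. None of the 5 T cell and 5 B cell markers had such a peak. S100a8 (1 of 5 granulocyte markers) had one in all 4 libraries, and Pdgfra (1 of 4 fibroblast markers) in control replicate 1. The counts for the macrophage and granulocyte markers were the same in both groups. In bulk cells, a larger share of cells with an open site and more open chromatin in each cell cannot be told apart.

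The following sequences are windows of up to 300 bp around the middle of 5 receptor regions, read from the plus strand of mm10. They are shown because they are the IL-4-only region with the highest height in its weaker library, the 3 regions with the lowest unadjusted p and the region with the largest decrease, all picked after their values were seen. Capitals mark matches on either strand to the motifs counted here, which were the STAT6 type, the GAS type (TTC and GAA separated by 3 bases), AP-1 (TGANTCA), PU.1 (GAGGAAG), C/EBP (TTGC and AA separated by 2 bases), RUNX (TGTGGTT) and ISRE, the interferon response element (GAAA and GAAA separated by 2 bases). PU.1, C/EBP, AP-1 and RUNX proteins are transcription factors that shape the macrophage enhancer repertoire. Matches may overlap, and a match is a stretch of letters and not a measured binding site.
Ifngr1, 65.4 kb upstream of the TSS, intergenic, chr10:19526406-19526705: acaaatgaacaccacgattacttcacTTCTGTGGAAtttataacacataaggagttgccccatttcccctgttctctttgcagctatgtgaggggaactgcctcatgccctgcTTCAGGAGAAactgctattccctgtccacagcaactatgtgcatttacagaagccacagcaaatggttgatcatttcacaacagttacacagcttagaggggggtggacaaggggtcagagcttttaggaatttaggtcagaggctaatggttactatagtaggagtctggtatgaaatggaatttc
Il6ra, 32.9 kb downstream of the TSS, intron 6, chr3:89880075-89880374: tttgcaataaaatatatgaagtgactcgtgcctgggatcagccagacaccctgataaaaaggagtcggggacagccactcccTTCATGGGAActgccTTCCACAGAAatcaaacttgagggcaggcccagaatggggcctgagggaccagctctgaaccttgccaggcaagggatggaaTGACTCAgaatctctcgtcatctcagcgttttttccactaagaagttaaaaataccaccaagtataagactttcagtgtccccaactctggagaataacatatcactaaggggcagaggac
Ifngr1, 85.8 kb upstream of the TSS, intergenic, chr10:19506059-19506354: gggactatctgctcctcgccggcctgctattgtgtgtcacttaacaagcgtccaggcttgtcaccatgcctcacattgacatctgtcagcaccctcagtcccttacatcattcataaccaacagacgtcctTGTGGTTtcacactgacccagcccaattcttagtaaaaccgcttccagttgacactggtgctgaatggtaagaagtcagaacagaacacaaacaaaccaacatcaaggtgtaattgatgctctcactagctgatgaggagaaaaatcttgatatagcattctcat
Il1rap, 44.6 kb downstream of the TSS, intron 2, chr16:26626161-26626460: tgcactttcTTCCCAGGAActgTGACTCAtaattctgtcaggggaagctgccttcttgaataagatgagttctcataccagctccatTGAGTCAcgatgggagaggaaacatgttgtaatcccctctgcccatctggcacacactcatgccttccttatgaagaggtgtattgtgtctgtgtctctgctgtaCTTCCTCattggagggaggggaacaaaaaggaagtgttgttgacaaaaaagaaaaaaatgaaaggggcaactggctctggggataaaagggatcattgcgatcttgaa
Il1r1, 5.41 kb downstream of the TSS, intron 1, chr1:40230364-40230663: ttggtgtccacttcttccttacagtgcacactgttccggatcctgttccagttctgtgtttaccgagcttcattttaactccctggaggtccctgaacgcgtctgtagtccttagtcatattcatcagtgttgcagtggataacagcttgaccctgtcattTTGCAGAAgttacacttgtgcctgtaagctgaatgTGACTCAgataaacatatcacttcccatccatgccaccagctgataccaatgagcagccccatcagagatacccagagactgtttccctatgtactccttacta

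In these windows, the STAT6-type matches are 2 in the Ifngr1 window at 65.4 kb (TTCTGTGGAA and TTCAGGAGAA), 2 in the Il6ra window (TTCATGGGAA and TTCCACAGAA), which also holds 1 AP-1 match, and 1 in the Il1rap window (TTCCCAGGAA), which has 2 AP-1 matches and 1 PU.1 match. The Ifngr1 window at 85.8 kb holds 1 RUNX match and no STAT6-type match. The Il1r1 window holds 1 AP-1 and 1 C/EBP match.

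The 76 receptor regions were spread over promoters, introns and intergenic DNA much like the rest of the series. Promoters made up 13 regions (17.1%, compared to 18.8% of all regions), introns 29 (38.2% against 40.2%) and intergenic DNA 33 (43.4% against 35.8%), and 1 region lay at the transcription end of Il6st. A peak was present in all 4 libraries in 37 regions (48.7%, compared to 41.9% of all regions), in 3 libraries in 5, in 2 libraries in 11 and in a single library in 23 (30.3% against 29.6%). Ifngr1 and Il6st carried 9 intergenic regions each and none in an intron, reaching 85.8 kb and 77.4 kb from the TSS. The regions of Il1rap lay in its introns, except for 1 promoter region, and reached 108 kb. Ifngr1 had 7 regions with a peak in all 4 libraries, whereas Il10ra had 1 of 9 and Ifnar1 1 of 4.

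**Figure D1:**
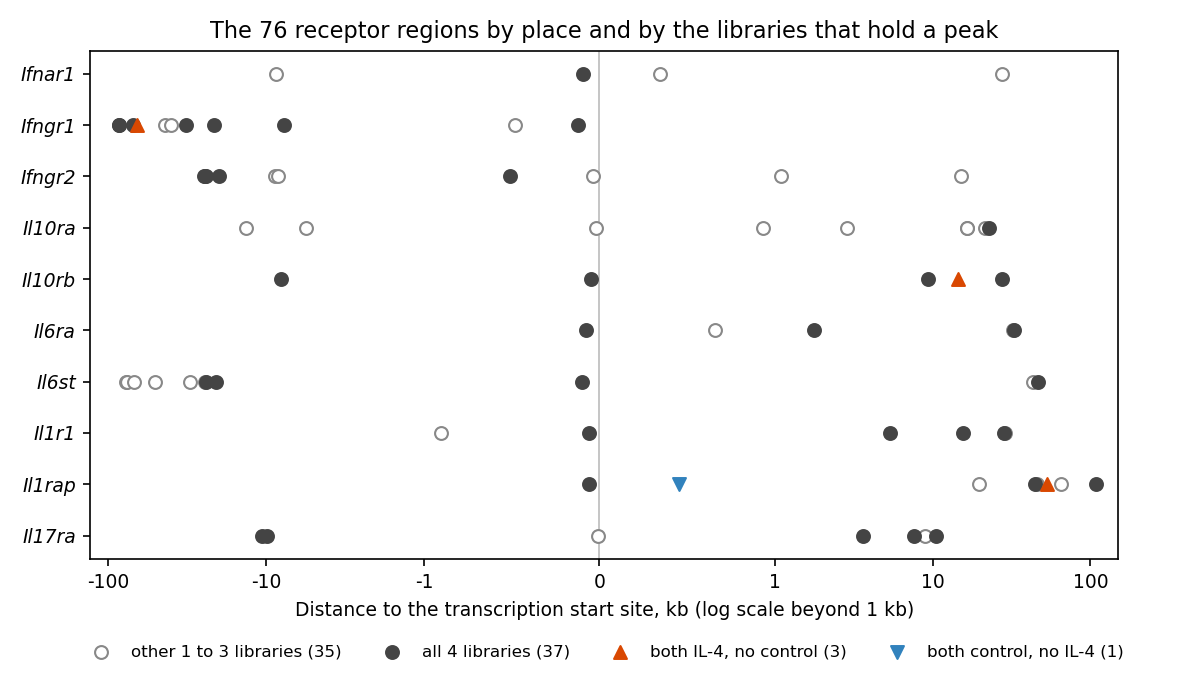
Each point is 1 of the 76 receptor regions, placed by its signed distance to the nearest TSS in kb (linear within 1 kb of the TSS and logarithmic beyond) and by gene. Filled circles are the 37 regions seen in every library, the upward triangles are the 3 IL-4-only regions at Ifngr1, Il10rb and Il1rap, the downward triangle is the control-only region at Il1rap, and open circles are the other 35 regions.

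Il10rb, Ifnar1 and Ifngr2 adjoin each other on chromosome 16, after Ifnar2. The 26 regions of these 4 genes extended over 207 kb, from 91354563 to 91562298 in mm10, and 14 of them had a peak in all 4 libraries. Gene names follow the nearest TSS, so a region in this cluster may be named for a neighbour. The region assigned to Il10rb at 8.04 kb upstream lies inside intron 7 of Ifnar2, the second chain of the type I interferon receptor. At Il10ra, the regions 22.8 kb and 21.3 kb downstream lie in intron 4 of the gene BC049352.

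Peak heights at the promoters of the receptor genes differed widely, which is a difference in evidence and not a measured degree of openness. The promoter of Il1rap, which encodes the accessory chain shared by the IL-1 and IL-33 receptors, had heights of 42.56 and 28.72 in the controls and 35.79 and 36.81 in the IL-4 libraries. These heights ranked at the 99th, 94th, 97th and 99th percentile of the promoter regions of the same libraries. The promoter of Ifnar1, a chain of the type I interferon receptor, had heights of 22.10 and 29.34 in the control and 33.06 and 12.99 in the IL-4 libraries, so that both extremes came from the IL-4 group. Ifngr1, which binds IFN-γ, had promoter heights of 25.10 and 27.72 in the control and 22.89 and 15.64 in the IL-4 libraries. Both IL-4 values lay below both control values.

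The promoter of Il6st, which encodes gp130, the signalling chain shared by the IL-6 family, had heights of 23.25 and 16.06 in the control and 18.11 and 14.37 in the IL-4 libraries. Ifngr2, the signalling partner of Ifngr1, had its highest promoter region 0.509 kb upstream of the TSS, with heights of 20.42 and 11.18 in the control and 10.13 and 16.58 in the IL-4 libraries. A second Ifngr2 promoter region, 39 bp upstream of the TSS, was lower at 4.45, 3.87 and 6.37 and had no peak in IL-4 replicate 2. In each of these 3 promoter regions the groups overlapped or a peak was missing.

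Il10rb, the chain that the IL-10 receptor shares with several other receptors, had promoter heights of 13.76 and 9.33 in the control and 15.57 and 8.48 in the IL-4 libraries. Il6ra, the chain that binds IL-6, had 9.61 and 9.66 in the control and 7.70 and 6.78 in the IL-4 libraries, and the normalised heights of the groups overlapped. Il1r1, the signalling receptor for IL-1, had 8.30 and 5.83 in the control and 8.70 and 4.46 in the IL-4 libraries. These 3 promoters ranked between the 15th and the 66th percentile of promoter regions. A further Il1r1 promoter region, at a second TSS of the gene, had a peak in IL-4 replicate 2 alone (5.05). The weakest promoters were those of Il17ra, the shared chain of the IL-17 receptors, with 4.26 in control replicate 1, no peak in control replicate 2, and 6.25 and 2.5 in the IL-4 libraries, and of Il10ra, the IL-10-binding chain, with a single peak of 8.21 in IL-4 replicate 2. Ordered by their highest promoter region (Il1rap, Ifnar1, Ifngr1, Il6st, Ifngr2, Il10rb, Il6ra, Il1r1, Il17ra), each gene overlapped the next in its range over the libraries. Il10ra was left out of this order because 1 library held its peak.

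**Figure D2:**
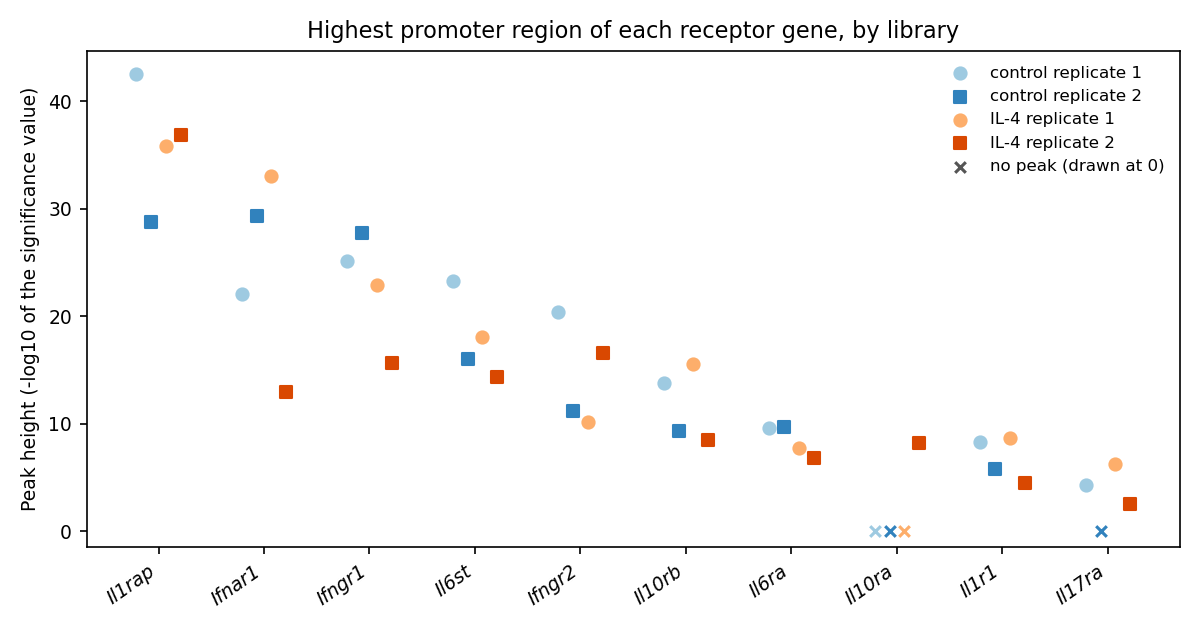
The y axis gives the peak height (−log10 of the significance value) of the highest promoter region of each of the 10 genes, with 1 point per library, and a cross at 0 where no peak was listed. Il1rap is highest at 28.72 to 42.56, and the points of control and IL-4 libraries are mixed in most genes.

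RefSeq promoter windows (250 bp before to 50 bp after the TSS, GRCm38.p6) were matched for 7 of the 10 genes, the others being Il10ra, Il10rb and Il17ra. Il1r1 has 2 such windows, and the one at its first TSS was used. The GC content of the windows was 49.3% in Il1r1 and 60.3% to 74.3% in the other 6 genes, compared to a median of 52.7% over 27025 promoters. CpG pairs numbered 5 in Il1r1 and 14 to 33 in the others, compared to a median of 7. The window of Ifngr2 was the richest in GC and held the STAT6-type match TTCCCGGGAA, a motif present in 6.99% of all promoters. It is printed because the weak region at this TSS was the only promoter region of the 10 genes with such a match, on the plus strand.
Ifngr2 promoter, chr16:91546809-91547108: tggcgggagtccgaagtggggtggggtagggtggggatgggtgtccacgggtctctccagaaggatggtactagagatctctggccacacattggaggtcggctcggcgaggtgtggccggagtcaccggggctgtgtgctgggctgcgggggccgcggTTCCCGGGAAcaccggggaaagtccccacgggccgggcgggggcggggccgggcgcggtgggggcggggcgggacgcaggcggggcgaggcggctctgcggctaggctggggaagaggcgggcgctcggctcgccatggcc

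Of the other windows, Ifnar1 held a GAS match (8.47% of all promoters), Il1rap an ISRE match (3.49%) and Il1r1 a C/EBP match (10.8%). None of the 7 windows held an AP-1 or a PU.1 match, motifs found in 7.93% and 13.5% of all promoters.

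Next, the regions found in 1 group only were examined. A peak in both IL-4 libraries and neither control library was found in 3 of the 76 receptor regions (3.95%, compared to 2.53% of all regions), and a peak in both control libraries and neither IL-4 library in 1 region (compared to 4.33% of all regions). The first IL-4-only region was the intergenic Ifngr1 region 65.4 kb upstream (chr10:19526401-19526710), with heights of 14.30 and 6.78. The second lay in intron 5 of Il10rb (chr16:91420566-91420682, heights 3.28 and 4.61) and the third in intron 2 of Il1rap (chr16:26634729-26634949, heights 4.11 and 3.73). The first thus stood well above the lowest listed heights, whereas the other 2 were weak.

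The window of each of the 3 IL-4-only regions held a STAT6-type match, with 2 at Ifngr1, TTCTCAGGAA at Il10rb and TTCGAGAGAA at Il1rap. In the whole series, 34.4% of the 1534 IL-4-only regions held such a match, compared to 4.56% of the 2630 control-only regions and 9.0% of all regions. The control-only receptor region lay in intron 1 of Il1rap, 453 bp downstream of the TSS (heights 3.17 and 8.12), next to the high promoter region, and had no STAT6-type match.

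A peak list either holds a peak or not, so these counts rest on single libraries. With 1 library left out, the number of IL-4-only receptor regions was 5 without control replicate 1, 4 without control replicate 2, 9 without IL-4 replicate 1 and 8 without IL-4 replicate 2. The control-only number was 5, 9, 2 and 2 in the same order. When peaks within 500 bp were merged, the control-only region joined the promoter region of Il1rap and an additional IL-4-only region appeared downstream of Il10ra, from neighbouring peaks of 6.05 in IL-4 replicate 1 (16.4 kb from the TSS) and 5.0 in IL-4 replicate 2 (16.6 kb). Both windows held the same STAT6-type match, TTCCAGAGAA.

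The number of receptor regions with a peak did not separate the groups. The control libraries held 55 and 47 of the 76 regions (mean 51.0 ± 5.66, SD, n = 2) and the IL-4 libraries 56 and 50 (mean 53.0 ± 4.24, SD, n = 2), a difference of 2 regions (two-sided exact permutation p = 0.6667, reached by 4 of the 6 ways to split the libraries, where no fewer than 2 of the 6 are possible). The difference was −4 regions with peaks above the pooled median height, −2 without control replicate 2 and −1 without IL-4 replicate 1.

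Changes in height were then tested with limma on quantile-normalised log2 heights, over the 25442 regions that had a peak in every library and of which 37 were receptor regions. None of the 37 passed an adjusted p of 0.05 (Benjamini-Hochberg over all regions), where 6 of all regions did (0.0236%). At an unadjusted limma p under 0.05 there were 6 receptor regions (16.2%), 4 higher and 2 lower after IL-4, compared to 8.28% of all regions. The 39 receptor regions that lacked a peak in some library were not tested. After normalisation, both IL-4 heights lay above both control heights in 6 of the 37 regions (16.2%, compared to 19.2% of all regions tested) and below them in 5 (13.5% against 18.6%). These shares are near or below those of all regions. Of the 37 changes, 13 were positive (35.1%, compared to 49.9% of all regions tested) and 24 negative. The median log2 change of the receptor regions was −0.12 with an SD over regions of 0.51, compared to 0.00 and 0.50 for all regions. Without control replicate 1 the median was 0.04, so its sign rests on that library.

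The largest increase was in intron 6 of Il6ra, at the region 32.9 kb downstream of the TSS (chr3:89880064-89880385) whose window holds 2 STAT6-type matches. Its heights were 6.74 and 6.58 in the controls and 16.57 and 12.48 in the IL-4 libraries, and the groups did not overlap. The log2 change was 1.35 ± 0.45 (SE, 95% interval 0.44 to 2.25, limma adjusted p = 0.358), at the 99.2 percentile of all regions tested. It stayed between 1.27 and 1.43 when any 1 library was left out. At the other tested Il6ra regions the differences were smaller. The intron 1 region 1.77 kb downstream had heights of 19.27 and 14.78 in the control and 18.18 and 10.03 in the IL-4 libraries, which overlap, and a log2 change of −0.11 ± 0.35 (SE).

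The next largest increase was the Ifngr1 region 85.8 kb upstream (chr10:19506059-19506354), with heights of 7.87 and 7.56 in the control and 15.65 and 14.92 in the IL-4 libraries. Replicates lay close together here and the groups did not overlap. The log2 change was 1.21 ± 0.43 (SE, 95% interval 0.36 to 2.06, limma adjusted p = 0.389), at the 98.6 percentile. A neighbouring Ifngr1 region, 85.4 kb upstream, had 13.03 and 6.29 in the control and 6.88 and 5.58 in the IL-4 libraries, with a log2 change of −0.31 ± 0.51 (SE). When peaks within 500 bp were merged, which joins these neighbours, the log2 change at 85.8 kb was 0.83. The remaining Ifngr1 regions in all 4 libraries had log2 changes from −0.54 to 0.04, with −0.31 ± 0.27 (SE) at the promoter.

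At Ifngr2, the region 19.9 kb upstream (chr16:91527145-91527352) had heights of 3.85 and 5.25 in the control and 7.99 and 6.61 in the IL-4 libraries. The groups did not overlap, and the log2 change was 0.96 ± 0.54 (SE, limma adjusted p = 0.656). It was 0.61 without control replicate 1 and at least 0.91 when another library was left out. A group of 3 adjoining regions 24.0 to 24.8 kb upstream had log2 changes of 0.24, −0.50 and −0.45. At the promoter region 0.509 kb upstream the change was −0.02 ± 0.38 (SE). For Ifnar1, the only region in all 4 libraries was the promoter, with a change of −0.12 ± 0.28 (SE), which turned to 0.18 without control replicate 2 and to 0.38 without IL-4 replicate 2.

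At Il1rap, the log2 changes of the 3 regions in all 4 libraries were positive. The intron 2 region 44.6 kb downstream (chr16:26626080-26626541) had heights of 17.64 and 21.64 in the control and 36.91 and 20.48 in the IL-4 libraries. On this scale the lower IL-4 value lay between the control values, and after normalisation both IL-4 values were above, with a log2 change of 0.67 ± 0.27 (SE, limma adjusted p = 0.478). The intron 4 region 108 kb downstream (chr16:26689746-26690027) had 12.22 and 10.67 in the control and 21.14 and 12.70 in the IL-4 libraries, which did not overlap, and a change of 0.75 ± 0.37 (SE, limma adjusted p = 0.602). At the promoter the change was 0.12 ± 0.20 (SE) and became −0.12 without control replicate 2.

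At Il1r1, which pairs with the product of Il1rap, the changes outside the promoter were negative. The intron 1 region 5.41 kb downstream (chr1:40230350-40230677) had heights of 27.10 and 19.74 in the control and 12.25 and 13.27 in the IL-4 libraries. The groups were apart, but the log2 change of −0.67 ± 0.32 (SE, limma adjusted p = 0.583) did not pass the test. It was the largest decrease of the 37 regions and stood at the 8.5 percentile of all regions. The intron 5 region (chr1:40294868-40295219) had 17.95 and 17.70 in the control and 14.00 and 9.37 in the IL-4 libraries, with a change of −0.41 ± 0.36 (SE). Its distance of 28.5 kb is taken from a second TSS of Il1r1. The intron 1 region and the promoter given next belong to the first TSS. At the promoter the change was 0.07 ± 0.53 (SE), with no sign that held when single libraries were left out.

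Il17ra had 4 negative changes among its 5 regions in all 4 libraries. The intergenic region 9.85 kb upstream (chr6:120453139-120453581) had heights of 29.26 and 24.53 in the control and 17.12 and 13.69 in the IL-4 libraries. The groups were apart, and the log2 change was −0.63 ± 0.28 (SE, limma adjusted p = 0.553). The adjoining region 10.6 kb upstream had 6.05 and 8.13 in the control and 5.24 and 2.76 in the IL-4 libraries, with a change of −0.62 ± 0.55 (SE).

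For the IL-10 receptor, the region assigned to Il10rb within Ifnar2 had heights of 34.70 and 16.92 in the control and 16.68 and 15.89 in the IL-4 libraries. The high value came from control replicate 1 alone, and the log2 change of −0.41 ± 0.30 (SE) became 0.06 without it. The promoter of Il10rb changed by 0.26 ± 0.42 (SE) and its intron 4 region by −0.22 ± 0.41 (SE). The sole Il10ra region in all 4 libraries, 22.8 kb downstream, had 19.43 and 10.89 in the control and 13.18 and 5.82 in the IL-4 libraries, and its change was −0.50 ± 0.42 (SE). The change ranged from −0.92 without IL-4 replicate 1 to −0.08 without IL-4 replicate 2, and was −0.16 without control replicate 1 and −0.84 without control replicate 2. At Il6st, the promoter changed by −0.07 ± 0.31 (SE). The region 23.9 kb upstream had 18.00 and 14.74 in the control and 19.99 and 15.48 in the IL-4 libraries, with a change of 0.32 ± 0.32 (SE).

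**Figure D3:**
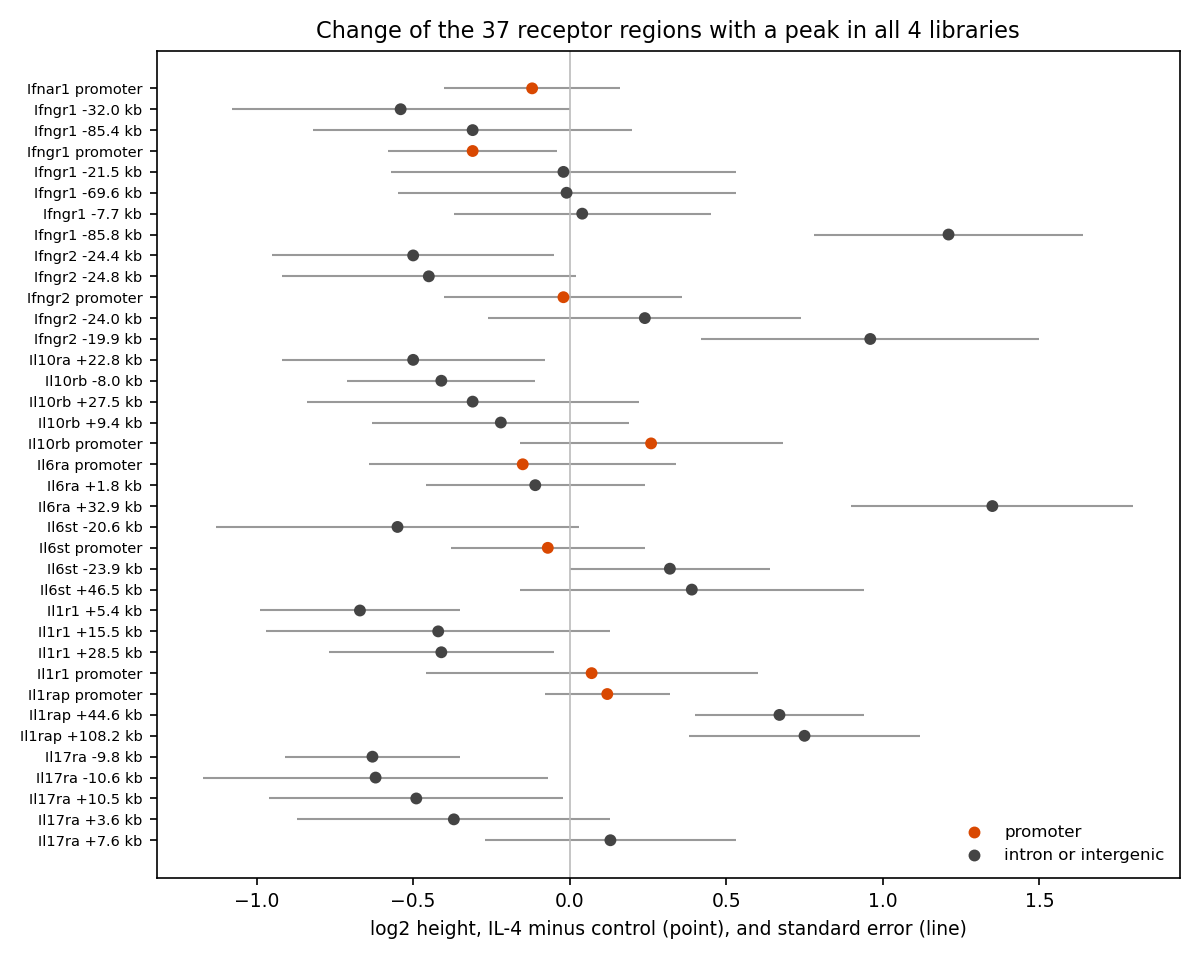
The log2 height in IL-4 minus control libraries (x axis, points) with its standard error (lines) is plotted for the 37 regions in all 4 libraries, labelled by gene and by distance to the nearest TSS in kb or as promoter. The 8 promoter regions lie between −0.31 and 0.26, and the points at Il6ra (1.35) and Ifngr1 (1.21) lie farthest to the right.

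**Figure D4:**
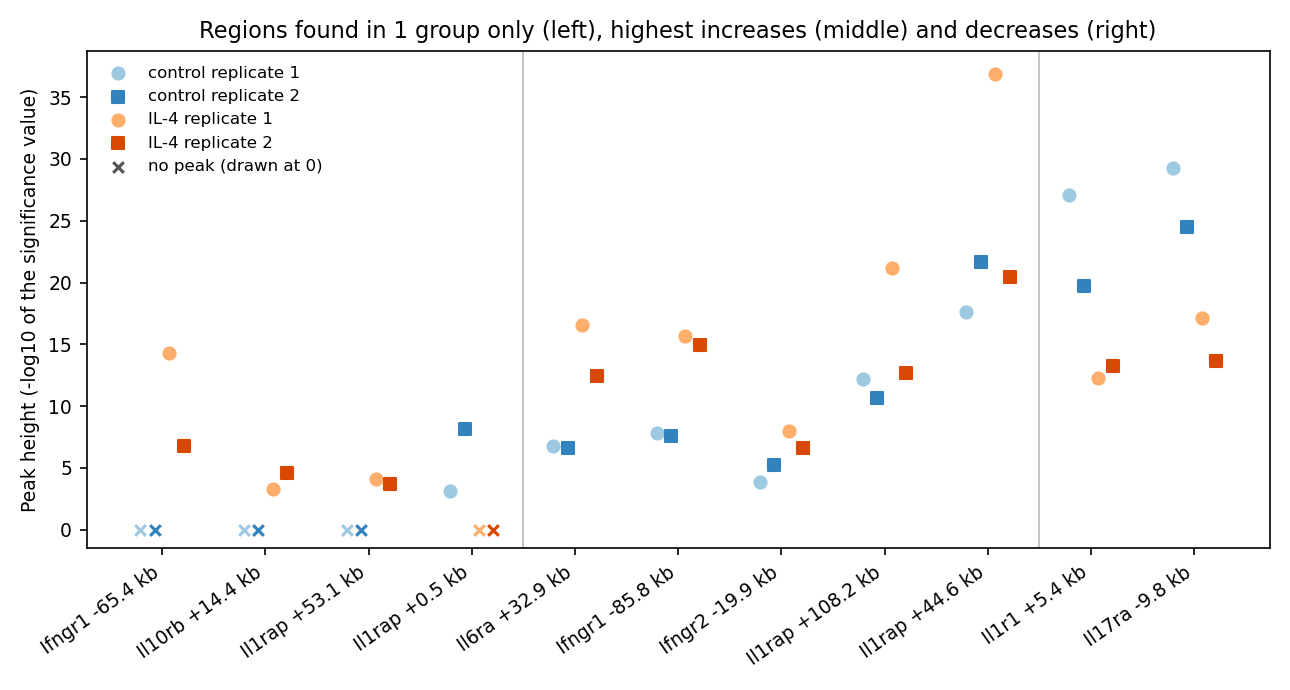
Peak heights in each library (y axis, −log10 of the significance value, 1 point per library and a cross at 0 for no peak) are shown for the 4 regions found in 1 group only, the 5 regions with the highest increases and the 2 with the largest decreases. At Il6ra and at the Ifngr1 region 85.8 kb upstream the IL-4 points (12.48 to 16.57) stand above the control points (6.58 to 7.87), and at Il17ra the order is the opposite.

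Differences between groups were smaller at promoter regions than at other receptor regions, as in the whole series. The median absolute log2 change was 0.12 over 8 promoter regions and 0.42 over 29 other regions, compared to 0.26 and 0.34 over all promoter and other regions tested. Promoter receptor regions also had higher peaks (median of the mean height 16.26 against 10.59). Their median replicate differences were 0.37 (control) and 0.39 (IL-4), against 0.49 and 0.42 at the others. The whole series had the same order. Whether this accounts for the smaller changes was not tested. Between the 2 libraries of a group, the median absolute difference in normalised log2 height over the 37 regions was 0.48 (control) and 0.42 (IL-4). Over all regions tested it was 0.38 and 0.39. The median absolute change between groups was 0.37 over the 37 regions and 0.31 over all regions tested. This change compares means of 2 libraries, which vary less than single libraries, so it cannot be set directly against the replicate differences.

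STAT6-type matches were found in the windows of 13 of the 76 receptor regions (17.1%, compared to 9.0% of all regions). RUNX matches were present in 15.8% against 9.5%, PU.1 in 31.6% against 25.4%, GAS in 10.5% against 8.87%, C/EBP in 15.8% against 14.6%, ISRE in 5.26% against 4.59% and AP-1 in 22.4% against 23.3%. These shares are a description. The windows of the Il10ra regions 16.4 kb and 16.6 kb downstream overlap, so their common STAT6-type and RUNX matches count for both regions. Among the 37 regions in all 4 libraries, 5 windows held a STAT6-type match, with log2 changes of 1.35 at Il6ra and 0.67 at Il1rap, and −0.41 at Il10rb, −0.54 at Ifngr1 (32.0 kb upstream) and −0.55 at Il6st (20.6 kb upstream). Their median was −0.41, but the Il10rb value was 0.06 without control replicate 1 and the Il6st value was 0.55 without IL-4 replicate 1. The Ifngr1 value rests on control replicate 1, with a height of 18.62. Heights there were 4.95 in control replicate 2 and 4.11 and 7.86 in the IL-4 libraries. Over the 1963 tested regions with a match in the whole series the median was 0.20, and 65.5% had a positive change, compared to 48.6% of those without.

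**Figure D5:**
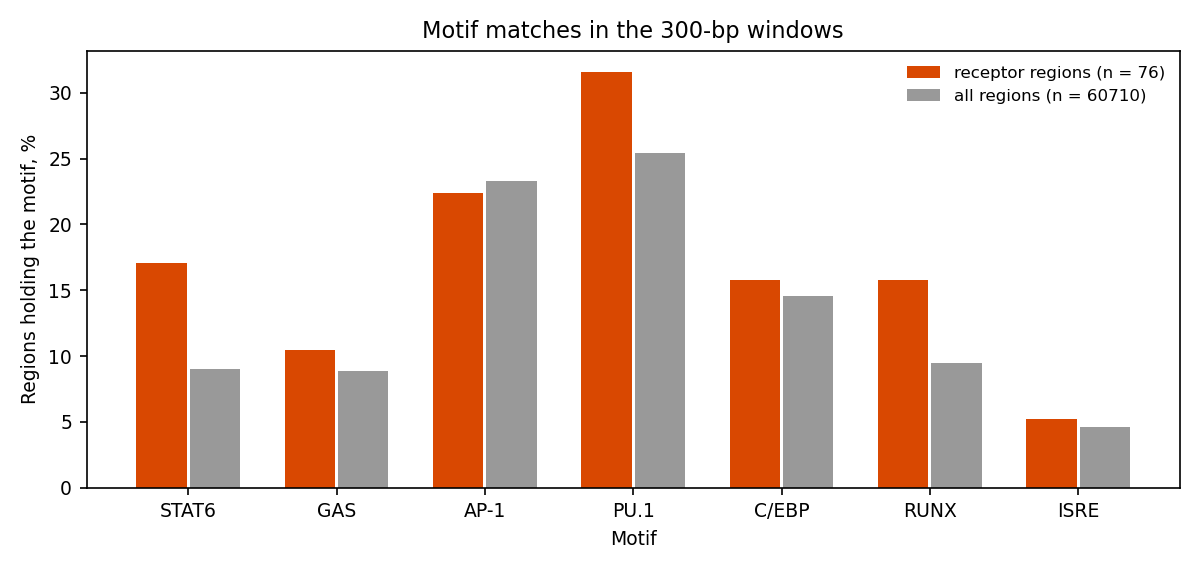
Bars give the percentage of the 76 receptor regions and of all 60710 regions whose 300-bp window holds each of 7 motifs on either strand. The bars differ most for the STAT6 type (17.1% against 9.0%), RUNX (15.8% against 9.5%) and PU.1 (31.6% against 25.4%).

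Other genes of these pathways were read from a list of 40 ligands, further receptor chains, kinases and factors, adaptors and inhibitors, of which 38 had a region. Their 191 regions included 85 with a peak in all 4 libraries, of which limma called none higher and none lower, and 44 changes were positive and 41 negative with a median of 0.01. The median was −0.28 over 13 regions of other receptor chains, −0.18 over 20 of kinases and factors, 0.05 over 22 of ligands, 0.10 over 12 of adaptors and 0.27 over 18 of inhibitors. Inhibitors, which include Socs1 and Socs3, the feedback inhibitors of cytokine signalling, had 13 positive and 5 negative changes. Of all regions tested, 49.9% had a positive change. Socs1 held 4 and Socs3 held 3 of these 18 inhibitor regions, and regions are not replicates.

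In this list, 7 of the 191 regions were IL-4-only (3.66%, compared to 2.53% of all regions) and 10 were control-only (5.24% against 4.33%). These shares are near those of all regions, and the following regions are given as values alone. The highest was 12.1 kb upstream of Jak2, a kinase of the IFN-γ receptor complex, with heights of 20.71 and 12.90 in the IL-4 libraries and a STAT6-type match in its window. At Irak3, an inhibitory member of the IRAK family, an IL-4-only region in an intron had heights of 8.58 and 7.12 and a STAT6-type match, and a control-only region at the promoter had 5.27 and 7.96. Il1b, which encodes the ligand of Il1r1, had an IL-4-only region 9.25 kb upstream with heights of 5.34 and 3.73. A control-only region lay at the promoter of Myd88, the adaptor of the IL-1 receptor, with heights of 7.11 and 5.0. Ifng had 3 control-only regions, with heights between 3.17 and 7.24. The inhibitors had 2 IL-4-only regions, at Ptpn2 and Usp18, and 2 control-only regions, both at Socs3 (heights between 3.17 and 5.73).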

How the data were processed

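ATAC-seq peak lists of 4 libraries were used, 2 control and 2 IL-4. The authors aligned reads to mm10 with BWA 0.7.10 and SAMtools 0.1.19, called peaks in each library on its own with MACS2 2.0.10, removed blacklisted regions and annotated peaks with HOMER 4.2 (versions from the submitters' processing notes). How duplicates, mitochondrial reads and the Tn5 offset were handled is not given in the sources used here. The deposited peak score was read as −log10 of a p- or q-value, because the lowest score of every library was close to −log10 of 0.05, although the methods name a q of 0.01 and 133 to 603 peaks per library scored under 2. The authors' distance to the TSS, in the same deposited files, is given in signed base pairs. The files hold no counts, so depth is unknown, no counting interval can be given, and the read-based tool of the study could not be used.

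Peaks of the autosomes and both sex chromosomes (without 2 to 4 mitochondrial peaks per library) were merged at an overlap of 1 bp (bedtools 2.31.1 gave the same 60710 regions), and a region took the highest height of each library. For regions with a peak in every library, log2 heights were quantile-normalised, and limma 3.58.1 (R 4.3.3) gave the test (trend, Benjamini-Hochberg, threshold 0.05), a fit tested on simulated data. The study's methods call the libraries biological replicates. The limma p-values rest on a variance that joins the spread between these 2 per group with a trend over all regions tested. They do not measure the spread of a single region alone. Numbers of regions per library were compared by an exact permutation test (Python 3.11.15, numpy 2.4.6). Motifs were counted on both strands of GRCm38.p6 in 300-bp windows, with no test, and sites are named where they lie inside the region itself or in the printed window. Named regions were those nearest the TSS, those found in 1 group only and the largest change of each gene, and others were named after their values were seen. The receptor genes, the pathway, marker and motif lists were chosen with earlier results of these data known, so none is independent support. The result of 1 marker list is not reported here. Alternatives were other normalisations, the replicate number as a block, each library left out, other peak thresholds and other rules for merging and naming.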

Additional observations from a re-analysis of the deposited data

How the results depend on the processing

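No receptor region passed the threshold in the main test or in any of the 14 alternative fits, which called 0 to 14 of all regions, and 2 to 6 receptor regions had an unadjusted limma p under 0.05. The fit with the replicate block also called 0 receptor regions. Whether the shared replicate numbers pair the libraries cannot be settled here. After normalisation, deviations of replicate 1 correlated with r = 0.00677 between groups over 25442 regions, which shows no shared effect region by region. A common animal or batch could not be checked in this way. The block moved the calls over all regions from 6 to 14. The median log2 change over receptor regions (−0.12) was −0.08 with median-centred heights, −0.32 without normalisation (where the median of all regions was −0.21), −0.05 with the higher peaks alone (those above the pooled median height) and −0.07 with peaks merged within 500 bp. With single libraries left out it ranged from −0.12 to 0.04. The higher peaks alone gave 1 IL-4-only, 0 control-only and 18 regions in all 4 libraries, and the difference in regions per library was −4. The control-only number was 0 with peaks merged within 500 bp and 2 with at least 50% of a region covered. With single libraries left out, the IL-4-only number ranged from 4 to 9 and the control-only number from 2 to 9, because fewer libraries must then agree. The difference in regions per library ranged from −2 to 6 with single libraries left out, an alternative chosen after seeing the data. Of 182 values at 16 named regions, 172 kept their direction. These include the fits without the variance trend and with the replicate block, which leave the log2 change as it is. Their values could not turn, so they say nothing about stability. Among the 10 that turned, the Il1r1 promoter was at −0.16 without normalisation. The others turned when single libraries were left out, where the ranges were −0.62 to 0.38 at the Ifnar1 promoter, −0.01 to 0.52 at the Il10rb promoter, −0.88 to 0.06 at the Il10rb region 8.04 kb upstream, −0.24 to 0.40 at the Il1r1 promoter, −0.12 to 0.38 at the Il1rap promoter, −0.25 to 0.12 at the Il6st promoter and −1.59 to 0.55 at the Il6st region 20.6 kb upstream. Unless stated, the cause was not tested. Heights depend on an unknown depth, and a missing peak does not show closed chromatin.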
